A study of Mus musculus with 24 samples.

Results

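STAT proteins (signal transducers and activators of transcription) are the transcription factors that carry signals from cytokine receptors to the nucleus. Receptor binding activates JAK kinases, which phosphorylate STATs, and the phosphorylated STATs pair, enter the nucleus and bind DNA at sites built from the half-sites TTC and GAA. In macrophages, STAT2 acts downstream of type I interferon, STAT3 downstream of IL-6 and IL-10, STAT4 downstream of IL-12, STAT5A and STAT5B downstream of GM-CSF and related cytokines, and STAT6 downstream of IL-4 and IL-13.

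The genes described here are Stat2, Stat3, Stat4, Stat5a, Stat5b and Stat6. Their members are the chromatin regions of the consensus peak set that overlapped 1 of the 6 gene bodies or the 20 kb on either side, each given to the nearest of the 6 genes, which took 91 of 184158 peaks. Of these, 29 belonged to Stat4, 19 to Stat3, 17 to Stat5b, 11 each to Stat2 and Stat6, and 4 to Stat5a. A total of 87 peaks had counts high enough to be tested. The 4 that did not pass the filter on low counts were 2 intronic peaks of Stat4 and 1 intronic peak each of Stat3 and Stat5a. Members were taken from the consensus by position alone, but a region entered the consensus by being called in at least 1 library. Of the 87 tested, 14 were called in libraries of 1 group only, so that group was favoured to be high in advance, and counts are given with and without them where they turn on this. The windows hold other genes too: 14 member peaks lay beyond the member gene inside the body of another gene.

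Chromatin accessibility was measured by ATAC-seq, which labels open DNA through cuts made by a transposase, in bone marrow-derived macrophages (BMDMs) from C57BL/6J wildtype (WT) mice and from AhR-KO mice, which lack a functional aryl hydrocarbon receptor (AhR). There were 4 groups of 6 libraries: unstimulated and LPS-treated cultures of each genotype (WT unstimulated, WT LPS, and likewise for AhR-KO). All marrow was grown with 10% fetal bovine serum, GM-CSF at 10 ng/ml and TGF-β at 2 ng/ml, a combination that gives cells resembling alveolar macrophages. LPS, a bacterial cell wall component, was added from day 6 for 24 h (97 EU/ml), and the calcium ionophore A23187 for 10 min (5 µM). The labels give these agents for every library, with no separate account of unstimulated cultures. Per the study's methods the mice were young adults of either sex and the Ahr allele (tm1Bra) was a germline deletion, so AhR was absent throughout life and in all cells, not in macrophages alone. The study's sequencing figure gives 6 animals per group from a single experiment. The labels do not say which unstimulated and LPS cultures shared an animal. The p-values measure the spread between these libraries of that experiment.

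Accessibility is given as CPM, the read pairs in a peak for each 1 M of the TMM-normalised library total. Totals ran from 8.54 M to 34.6 M read pairs in peaks. All 9 macrophage markers and all 5 alveolar-like macrophage markers had a peak over their transcription start site (TSS), whereas Cd3e, Cd3g, Cd4, Cd8a, Lck, Cd79a, Pax5, Elane, Prtn3, Ly6g, Clec9a and Cd209a had none. Other markers of the non-macrophage lists did have a TSS peak: Zbtb46, Cebpe, S100a8, Klrb1c, Flt3, Ebf1, Tbx21, Mpo and Ccr7. In WT unstimulated libraries the first 4 had means of 21.6, 21.1, 20.2 and 16.5 CPM, beside 21.3 CPM for the macrophage marker Adgre1. Flt3 had 9.07 CPM, Ebf1 7.63 CPM and Ccr7 0.940 CPM. The TSS peak of Ahr, which lies outside the deleted part and therefore checks nothing of the deletion, held 11.5 to 16.8 CPM in the AhR-KO libraries and 19 to 24.6 CPM in the WT libraries. The TSS peak of Ahrr, the AhR repressor gene and a known AhR target, held 2.04 to 4.13 CPM in AhR-KO and 9.52 to 13.3 CPM in WT, so every library stood on its label's side.

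Sequences are shown for the regions on which the results turn, since they let the DNA of the changing elements be read directly. They were read from GRCm38, the assembly behind mm10, as the 300 bases at the centre of a peak on the plus strand, and for Stat4 also as the 250 bases before the RefSeq start under its TSS peak. Capitals mark matches on either strand to the letters TTCNNNGAA, to TTC and GAA 4 bases apart, to GAAANNGAA, which is part of the element bound by interferon-activated STAT complexes, and to GCGTG, the core of the AhR element. The first is the promoter of Stat4, chr1:52007990-52008239, with a GAAANNGAA match. The next 3 are intronic Stat4 windows, at chr1:52019664-52019963, chr1:52040661-52040960 and chr1:52092479-52092778, whose peaks were among those with the largest deficits in AhR-KO. The window at +11.6 kb holds no match.

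Stat4 promoter: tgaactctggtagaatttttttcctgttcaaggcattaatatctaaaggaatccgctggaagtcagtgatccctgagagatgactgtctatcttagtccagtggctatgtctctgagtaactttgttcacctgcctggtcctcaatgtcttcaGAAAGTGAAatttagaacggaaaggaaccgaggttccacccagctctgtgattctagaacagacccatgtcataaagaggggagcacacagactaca
Stat4 intron, +11.6 kb: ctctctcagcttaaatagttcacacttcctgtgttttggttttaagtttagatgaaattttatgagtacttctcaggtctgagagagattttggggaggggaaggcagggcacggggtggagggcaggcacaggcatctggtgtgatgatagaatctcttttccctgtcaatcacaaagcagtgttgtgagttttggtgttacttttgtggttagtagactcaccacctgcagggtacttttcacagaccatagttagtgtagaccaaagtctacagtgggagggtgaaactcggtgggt
Stat4 intron, +32.6 kb: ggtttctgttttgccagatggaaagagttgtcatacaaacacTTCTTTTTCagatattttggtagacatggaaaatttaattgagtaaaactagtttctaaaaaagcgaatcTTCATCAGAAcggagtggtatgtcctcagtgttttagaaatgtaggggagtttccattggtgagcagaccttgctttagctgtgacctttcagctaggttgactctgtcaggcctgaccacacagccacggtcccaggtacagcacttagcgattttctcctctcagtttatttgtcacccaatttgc
Stat4 intron, +84.4 kb: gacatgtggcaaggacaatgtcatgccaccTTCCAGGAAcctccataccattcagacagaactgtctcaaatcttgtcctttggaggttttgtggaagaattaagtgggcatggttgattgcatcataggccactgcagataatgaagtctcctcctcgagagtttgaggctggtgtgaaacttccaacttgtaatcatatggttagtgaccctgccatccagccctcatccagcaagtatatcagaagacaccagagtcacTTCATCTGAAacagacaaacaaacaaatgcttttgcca

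A further 4 windows are from regions outside Stat4 whose LPS or genotype differences are described below. They lie upstream of Stat3 (chr11:100947076-100947375), in intron 1 of Stat5b (chr11:100844312-100844611), upstream of Stat5b (chr11:100852895-100853194) and in intron 22 of Stat2 (chr10:128287086-128287385).

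Stat3 upstream, -7.7 kb: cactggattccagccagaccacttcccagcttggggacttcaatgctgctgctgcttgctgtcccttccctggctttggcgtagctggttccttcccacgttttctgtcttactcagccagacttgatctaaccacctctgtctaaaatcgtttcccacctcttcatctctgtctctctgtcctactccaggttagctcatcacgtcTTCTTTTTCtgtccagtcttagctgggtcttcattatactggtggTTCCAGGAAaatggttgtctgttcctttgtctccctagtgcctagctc
Stat5b intron, +6.3 kb: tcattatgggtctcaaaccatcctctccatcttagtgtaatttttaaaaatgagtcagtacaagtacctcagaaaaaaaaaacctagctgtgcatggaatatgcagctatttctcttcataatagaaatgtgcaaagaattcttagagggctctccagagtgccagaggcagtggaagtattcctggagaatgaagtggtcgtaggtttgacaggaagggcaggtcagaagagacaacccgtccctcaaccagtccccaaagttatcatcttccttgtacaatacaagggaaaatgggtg
Stat5b upstream, -2.3 kb: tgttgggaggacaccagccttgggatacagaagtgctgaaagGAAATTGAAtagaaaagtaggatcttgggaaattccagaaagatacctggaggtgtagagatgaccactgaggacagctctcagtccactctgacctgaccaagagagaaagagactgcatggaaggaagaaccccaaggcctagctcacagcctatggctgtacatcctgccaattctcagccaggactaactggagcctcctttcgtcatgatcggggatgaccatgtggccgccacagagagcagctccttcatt
Stat2 intron, +16.7 kb: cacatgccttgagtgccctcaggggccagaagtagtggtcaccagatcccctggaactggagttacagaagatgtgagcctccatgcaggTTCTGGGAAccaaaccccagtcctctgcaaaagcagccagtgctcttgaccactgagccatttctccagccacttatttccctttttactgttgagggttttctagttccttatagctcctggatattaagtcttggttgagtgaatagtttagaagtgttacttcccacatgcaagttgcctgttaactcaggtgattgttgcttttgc

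Over the 87 windows, TTCNNNGAA was present in 4 (4.60%, against 11% of the windows of the other tested peaks) and TTC and GAA 4 bases apart in 8 (9.20%, against 8.34%). GAAANNGAA was present in 10 (11.5%, against 10.9%) and GCGTG in 22 (25.3%, against 16.3%). Among the 27 Stat4 windows, 6 held TTC and GAA 4 bases apart, 5 held GAAANNGAA, 7 held GCGTG and 1 held TTCNNNGAA. Of 9 RefSeq promoter entries for the 6 genes, each 300 bases long, 2 held GAAANNGAA (22.2%, against 8.56% of 32851 promoters). The 2 were the Stat4 entry shown above and the Stat2 entry. GCGTG was in 3 (33.3%, against 32.4%) and TTC and GAA 4 bases apart in 1 (11.1%, against 6.95%). TTCNNNGAA was in 0, against 8.30%. These matches describe the letters only.

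The main TSS peaks (highest mean CPM for each gene) of 5 genes were open in every group and stayed within or at the fold threshold. The main TSS peak of Stat4 was low and passed it in all 4 group comparisons. A second Stat5b TSS peak, at +28.1 kb, was lowered past the threshold by LPS in AhR-KO. The levels that follow are of the main TSS peaks. Per kb of peak, WT unstimulated levels at the TSS were 34.5 ± 0.852 CPM per kb for Stat3 (SD, n = 6 here and below), 30.4 ± 2.39 for Stat2, 12.9 ± 0.716 for Stat6, 7.66 ± 0.591 for Stat5a, 7.50 ± 1.07 for Stat5b and 3.0 ± 0.589 for Stat4. Stat5a and Stat5b did not differ beyond their spread, and the libraries of Stat3 and Stat2 ranged from 33.4 to 35.5 and from 27.3 to 33.1 CPM per kb. In WT LPS cultures Stat4 reached 9.01 ± 2.77 CPM per kb, within the range of Stat5a (9.93 ± 1.25) and Stat5b (8.47 ± 0.789), and in AhR-KO LPS cultures it was 2.85 ± 0.602.

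**Figure D1:**
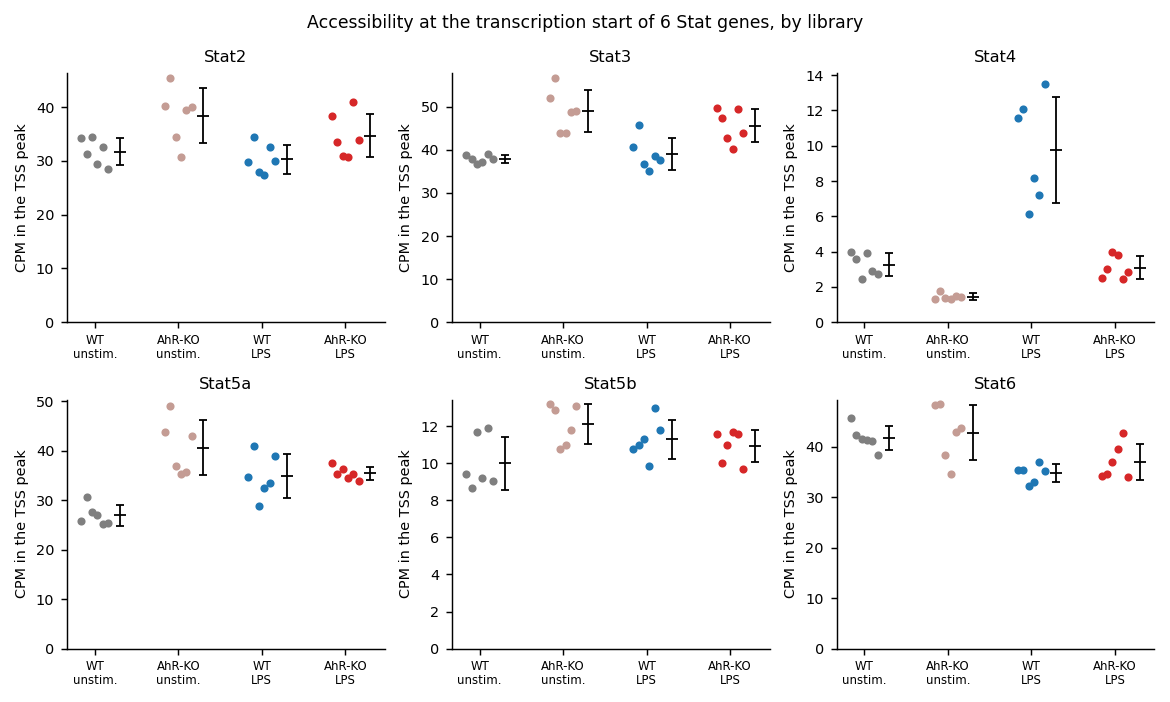
CPM in the TSS peak of each Stat gene (y axis, from 0) for the 6 libraries of each group (points), with the mean and SD beside them. Only the Stat4 panel has separated WT and AhR-KO groups in both treatments, with 6.11 to 13.5 CPM in WT LPS against 2.44 to 3.97 CPM in AhR-KO LPS.

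Peaks were called differentially accessible regions (DARs) where edgeR's quasi-likelihood test over all tested peaks gave an adjusted p up to 0.05 together with a change of 1.5-fold or more. Without LPS, 23 of the 87 Stat peaks were DARs between AhR-KO and WT (26.4%, against 22.6% of all tested peaks), 13 lower and 10 higher in AhR-KO (12.6% and 9.95% of all tested peaks). With LPS there were 32 (36.8%, against 26.5%), 21 lower and 11 higher (13.1% and 13.4%). Without the 14 of 87 peaks called in 1 group only, unstimulated cultures had 10 lower and 8 higher peaks, and LPS-treated cultures had 13 and 7. The lower count with LPS thus fell from 21 to 13. No share over all peaks was taken with such peaks left out. LPS itself changed 41 Stat peaks in WT (47.1%, against 47.0%), with 33 higher and 8 lower (25.4% and 21.6%), and 40 in AhR-KO (46.0%, against 48.8%), with 29 higher and 11 lower (27.3% and 21.5%). The genotype effect differed between LPS and unstimulated cultures at 4 peaks (4.60%, against 10.4%), 3 lower and 1 higher (4.58% and 5.83%). This last count was the least stable, with 1 lower peak without WT LPS replicate 2, AhR-KO LPS replicate 2 or AhR-KO LPS replicate 6, 5 without AhR-KO LPS replicate 3 or 4, and 8 without WT LPS replicate 3. The higher count was 2 without WT LPS replicate 3, AhR-KO unstimulated replicate 1 or AhR-KO LPS replicate 2, and 3 without WT LPS replicate 6. Libraries of the compared groups did not overlap at 23 Stat peaks for genotype without LPS and 16 with LPS, and at 38 for LPS in WT and 34 in AhR-KO, against 21%, 19.6%, 38.7% and 45.6% of all tested peaks. The comparisons share groups of libraries, so their counts are not independent of each other. In whole cultures, fewer cells with an open region and a less open region in every cell cannot be told apart.

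**Figure D2:**
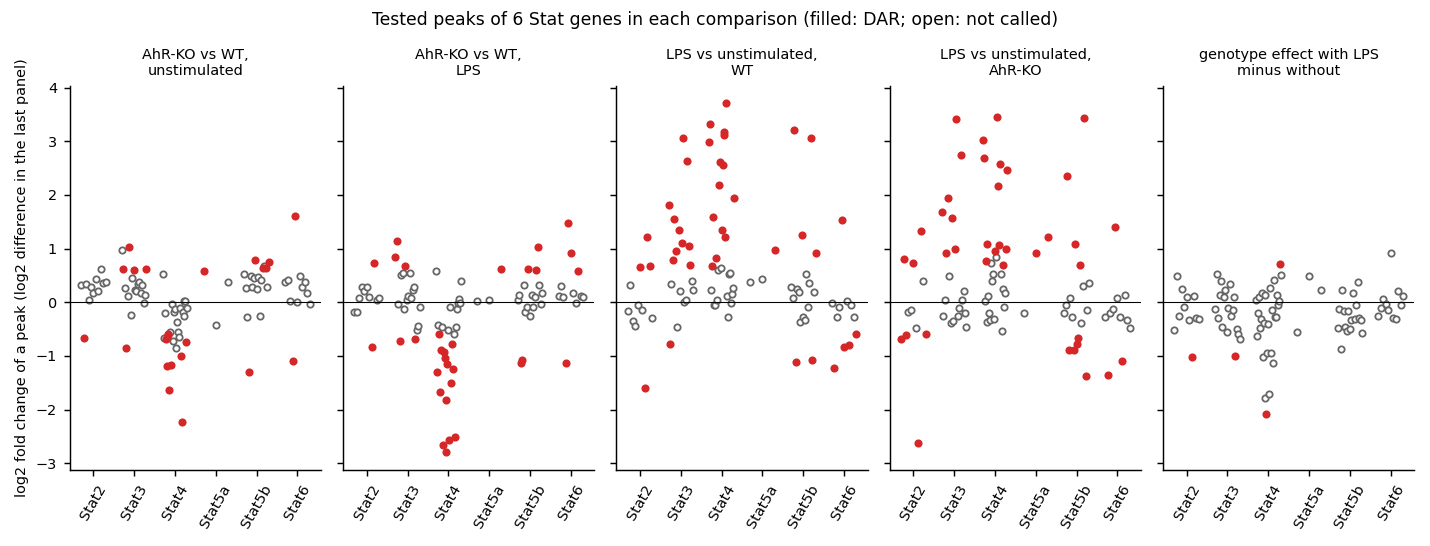
Log2 fold change (y axis, log2 difference of differences in the last panel) of each of the 87 tested peaks, by gene and in order of position along the chromosome, with DARs filled. In the AhR-KO against WT panels all filled Stat4 points lie below 0, from -2.24 to -0.59 without LPS and from -2.80 to -0.59 with it.

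Stat4, the STAT of the IL-12 pathway, is known best from T and NK cells and is expressed by activated macrophages and dendritic cells. Of its 27 tested peaks, AhR-KO had lower accessibility than WT at 9 without LPS (33.3%, against 12.6% of all tested peaks that were lower) and at 15 with LPS (55.6%, against 13.1%), and 0 were higher in either treatment. LPS raised 14 Stat4 peaks in WT (51.9%, against 25.4% that were higher) and 12 in AhR-KO (44.4%, against 27.3%), and lowered 0 in either genotype. The median log2 fold change of its peaks for AhR-KO against WT was -0.56 without LPS and -0.77 with LPS, while over all tested peaks the medians were -0.021 and 0.021. Leaving out 1 library at a time gave 7 to 9 lower Stat4 peaks without LPS and 13 to 16 with LPS.

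A group of 3 peaks given to Stat4 by its downstream window lay inside a neighbouring gene. Among the 24 other tested peaks, 8 were lower in AhR-KO without LPS and 15 with LPS, 17 were lower in at least 1 treatment and 6 in both, against 18.8% and 6.95% of all tested peaks. In WT, LPS raised 13 of the 24 peaks. At 10 of the 24, LPS raised the peak in WT and AhR-KO was lower than WT with LPS, against 4.41% of all tested peaks with both calls. Both calls share the WT LPS libraries. The peak caller had called 7 of the 24 in WT LPS libraries only. Among the 17 others, 5 were lower in AhR-KO without LPS, 9 were lower with LPS and 0 were higher in either treatment, while LPS raised 9 in WT and 10 in AhR-KO. The estimate was below 0 at 22 of the 24 peaks without LPS and at 23 with LPS.

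The Stat4 TSS peak (chromosome 1, 52008177 to 52009262, over exon 1 of the shorter transcript) had a lowest, median and highest value of 2.47, 3.24 and 3.96 CPM in WT unstimulated libraries and 1.30, 1.42 and 1.79 CPM in AhR-KO unstimulated libraries. With LPS the values were 6.11, 9.87 and 13.5 CPM in WT and 2.44, 2.93 and 3.97 CPM in AhR-KO. Over all peaks, WT LPS replicate 3 stood furthest from replicates 1, 2 and 6 (6.96 to 8.67 chi-square per peak, against 1.69 to 4.54 for the other pairs of this group). At the TSS peak the order was alike, with 6.11 and 7.22 CPM in replicates 3 and 5 and 11.6, 12.1 and 13.5 CPM in replicates 1, 2 and 6, and the same 2 libraries were lowest at -11.1, +11.6 and +32.6 kb. The part of this split in the Stat4 results was not tested, and without replicate 3 the AhR-KO against WT difference at the TSS with LPS was -1.77. The groups did not overlap in either genotype comparison or in either LPS comparison, and LPS-treated AhR-KO libraries held about the level of unstimulated WT libraries. The log2 fold change of AhR-KO against WT was -1.18 ± 0.206 (SE, edgeR adjusted p = 2.38e-05) without LPS and -1.67 ± 0.163 (edgeR adjusted p = 1.09e-09) with LPS. LPS raised the peak by 1.58 ± 0.169 on the log2 scale in WT and by 1.09 ± 0.20 in AhR-KO (edgeR adjusted p = 1.05e-09 and 1.49e-05), and the difference of the 2 genotype effects was -0.49 ± 0.266 (edgeR adjusted p = 0.226). No consensus peak covered the upstream start of the longer Stat4 transcript at 51987148.

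In intron 3 of Stat4, 11.6 kb past the TSS (52019631 to 52019996), WT libraries held 0.582, 0.911 and 1.32 CPM without LPS and 0.861, 1.63 and 2.46 CPM with LPS. The AhR-KO libraries held 0.236, 0.294 and 0.410 CPM without LPS and 0.158, 0.265 and 0.361 CPM with LPS, below every WT library of the same treatment. This was a log2 fold change of -1.64 ± 0.295 without LPS and -2.66 ± 0.259 with LPS (edgeR adjusted p = 2.35e-05 and 2.90e-10). The peak caller called a peak here in 4 of 6 WT LPS libraries and in 0 of the other 18, so the region entered the consensus through WT LPS.

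The peak at 32.6 kb (52040310 to 52041310, also intron 3) behaved differently without LPS. Unstimulated libraries held 0.221, 0.248 and 1.14 CPM in WT and 0.157, 0.247 and 0.381 CPM in AhR-KO, with overlap and nearly equal medians. With LPS, WT held 1.09, 2.51 and 4.82 CPM and AhR-KO held 0.203, 0.327 and 0.792 CPM. This region too was called in WT LPS libraries only (4 of 6), which favoured a high WT LPS level in advance. LPS changed it by 2.61 ± 0.386 on the log2 scale in WT (edgeR adjusted p = 1.35e-06), against 0.53 ± 0.537 in AhR-KO (edgeR adjusted p = 0.398). The difference of the genotype effects was -2.08 ± 0.702 (edgeR adjusted p = 0.0442). That call was lost in 17 of 24 fits that left out 1 library, although the estimate ranged from -2.73 to -1.82 over the 24.

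At 84.4 kb (52092397 to 52092859, intron 14) the loss in AhR-KO was present in both treatments. WT libraries held 0.698, 1.5 and 2.44 CPM without LPS and 0.879, 1.34 and 1.83 CPM with LPS, against 0.176, 0.326 and 0.551 CPM and 0.0811, 0.266 and 0.406 CPM in AhR-KO. Neither treatment had overlapping genotypes, and LPS did not pass the test in either genotype. The log2 fold changes of AhR-KO against WT were -2.24 ± 0.310 and -2.51 ± 0.316 (edgeR adjusted p = 3.80e-07 and 6.62e-08).

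Other Stat4 peaks that opened with LPS included those at 47.8 kb (52055644 to 52056433), with 1.39 ± 0.378 CPM in WT unstimulated and 12.5 ± 5.44 CPM in WT LPS, and at -11.1 kb (51996728 to 51997575), with 0.747 ± 0.196 and 7.39 ± 3.41 CPM, both picked after their values were seen. In AhR-KO LPS the same regions held 4.44 ± 2.01 and 3.03 ± 1.19 CPM, with some overlap of the libraries in both. Not every LPS-raised region of Stat4 was lower in AhR-KO. The peak 37.9 kb upstream of the TSS peak (51970019 to 51970642) went from a median of 0.397 to 3.54 CPM in WT and from 0.645 to 5.39 CPM in AhR-KO. Its LPS effects were 2.98 ± 0.183 and 3.03 ± 0.159 on the log2 scale (edgeR adjusted p = 1.69e-16 and 1.01e-18), and with LPS every AhR-KO library was above every WT library. That genotype difference was 0.58 ± 0.123, just under the fold threshold.

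**Figure D3:**
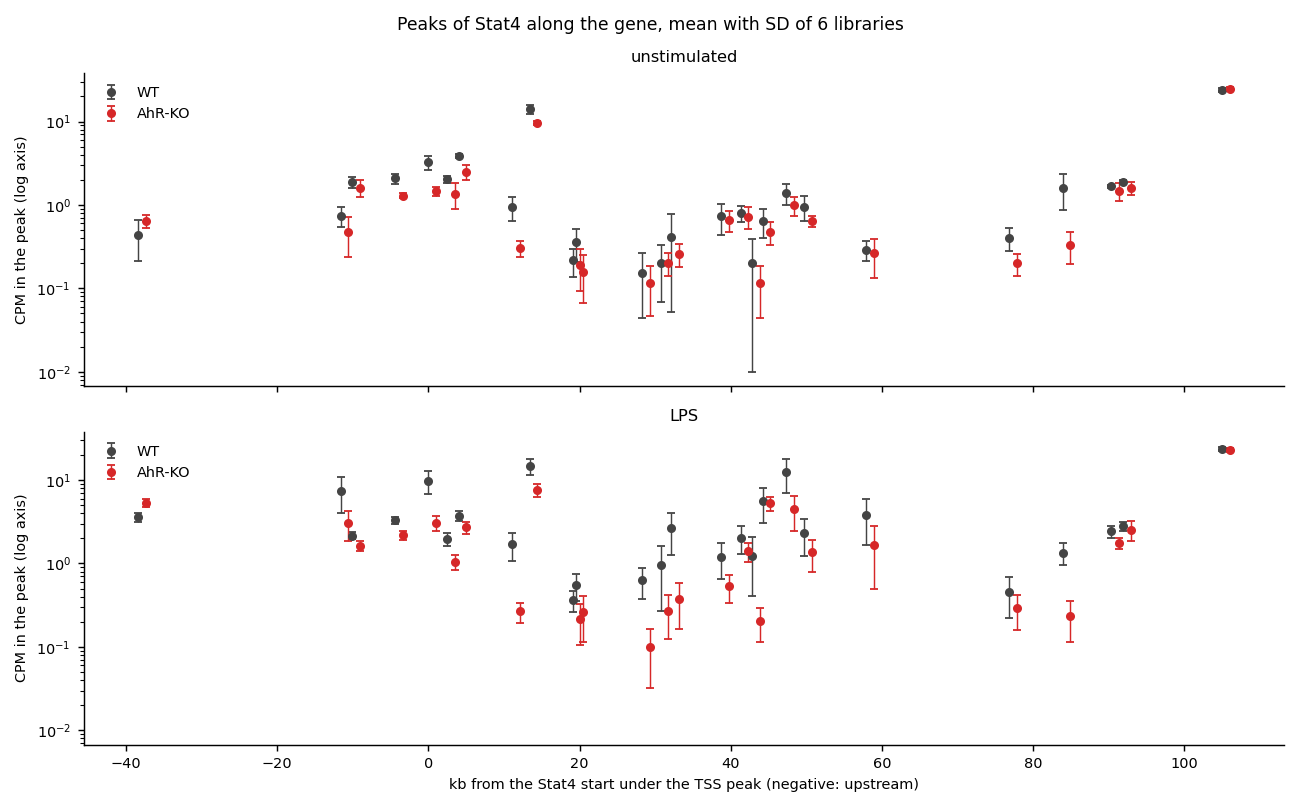
Mean CPM (log axis) with SD of 6 libraries for the 26 Stat4 peaks outside the neighbouring gene, by distance in kb from the start under the TSS peak, with WT and AhR-KO points moved 0.5 kb to either side and lower error bars that would reach 0 cut short. AhR-KO points lie below WT points over most of the gene body, and at -37.9 kb they lie above them in both treatments.

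Dendritic cells can arise in GM-CSF cultures, and the 3 dendritic cell markers with a TSS peak (Flt3, Zbtb46 and Ccr7, of 5 listed) moved with Stat4 in part. Of 45 peaks within 5 kb of the 5 listed dendritic cell genes, 11 were lower and 8 higher in AhR-KO without LPS (24.4% and 17.8%). With LPS, 14 were lower and 6 higher (31.1% and 13.3%). Peaks within 5 kb of the 4 B cell marker genes had nearly the same pattern as Stat4. Of 35, 12 were lower and 1 higher without LPS (34.3% and 2.86%), and 19 and 0 with LPS (54.3% and 0%). LPS raised 17 in WT (48.6%, against 25.4% of all tested peaks). Over all tested peaks the genotype shares were 12.6% and 9.95% without LPS and 13.1% and 13.4% with LPS. The alveolar-like macrophage markers ran the other way without LPS, with 3 of 5 TSS peaks higher in AhR-KO and summed levels of 48.1 to 61.3 CPM against 32.4 to 42.6 CPM in WT. The summed TSS level of the dendritic cell markers was 28.3 to 45.2 CPM in WT LPS libraries and 20 to 25.9 CPM in AhR-KO LPS libraries, but 25.7 to 34.5 and 26.6 to 32.5 CPM without LPS. Flt3, a growth factor receptor of dendritic cells and progenitors, was lower in AhR-KO in both treatments (-1.16 ± 0.158 and -1.29 ± 0.147 on the log2 scale). Ccr7, the chemokine receptor of migrating dendritic cells, was lower in AhR-KO with LPS (-1.53 ± 0.243). It rose with LPS in WT (2.83 ± 0.291) and in AhR-KO (2.13 ± 0.339), as the Stat4 TSS peak did. The difference of its genotype effects was -0.71 ± 0.483 (edgeR adjusted p = 0.351). Zbtb46 did not pass the fold threshold in either genotype comparison, and Clec9a and Cd209a had no TSS peak. Among T and NK cell markers, Tbx21 and Klrb1c had a TSS peak and 5 of 7 had none. Of 21 peaks within 5 kb of that list, 6 were lower and 0 higher in unstimulated AhR-KO cultures (28.6% and 0%). In LPS-treated ones 5 were lower and 2 higher (23.8% and 9.52%). The summed TSS level was 15.6 to 18.8 CPM in WT LPS and 20.2 to 23.2 CPM in AhR-KO LPS, mostly from Klrb1c (means of 14.9 and 19.6 CPM), while Tbx21 had 2.56 and 2.33 CPM. The part of these cell types in the Stat4 differences was not tested.

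Stat3, which restrains inflammation downstream of IL-10 and drives acute-phase responses downstream of IL-6, gained accessibility with LPS at 10 of 18 tested peaks in WT (55.6%, against 25.4% of all tested peaks) and 7 in AhR-KO (38.9%, against 27.3%), and was lower at 1 and 0 (21.6% and 21.5% of all tested peaks). Its TSS peak (chromosome 11, 100939111 to 100940210) held 36.7, 37.8 and 39.1 CPM in WT unstimulated and 44.0, 48.9 and 56.7 CPM in AhR-KO unstimulated libraries. These groups did not overlap, and the log2 fold change of 0.37 ± 0.0652 (edgeR adjusted p = 1.59e-05) was under the fold threshold. LPS left the TSS level at 35.2, 38.1 and 45.8 CPM in WT, a log2 fold change of 0.04 ± 0.0650.

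The Stat3 region 7.7 kb upstream of the TSS (100946649 to 100947802) was nearly closed without LPS, at 0.726, 1.03 and 1.29 CPM in WT and 0.966, 1.18 and 1.37 CPM in AhR-KO, and was called as a peak in 0 of 12 unstimulated libraries. With LPS it held 5.57, 6.09 and 7.46 CPM in WT and 6.95, 7.57 and 9.89 CPM in AhR-KO, and was called in all 12. The LPS effect was 2.64 ± 0.137 on the log2 scale in WT and 2.74 ± 0.128 in AhR-KO (edgeR adjusted p = 1.67e-18 and 3.90e-20). Its window, shown above, holds a TTCNNNGAA match and a GAAANNGAA match. The peak with the largest LPS fold in Stat3, picked after its values were seen, was in intron 1 (100933524 to 100934427), at 0.495 ± 0.134 and 4.27 ± 1.29 CPM in WT and 0.579 ± 0.204 and 6.21 ± 0.457 CPM in AhR-KO without and with LPS.

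Genotype differences in Stat3 ran in both directions. Over coding exons 3 and 4 (100907220 to 100908876), AhR-KO unstimulated libraries held 3.91, 4.16 and 4.68 CPM and WT held 1.19, 2.20 and 2.58 CPM, a log2 fold change of 1.02 ± 0.140 (edgeR adjusted p = 2.50e-07). Over exon 24 (100887858 to 100889104) AhR-KO LPS libraries held 2.91, 3.57 and 4.74 CPM against 1.35, 1.58 and 2.05 CPM in WT LPS, a log2 fold change of 1.14 ± 0.139 (edgeR adjusted p = 2.64e-08). Intron 14 (100897217 to 100898191) was lower in AhR-KO by -0.86 ± 0.255 without LPS and -0.73 ± 0.216 with LPS (edgeR adjusted p = 0.00895 and 0.00785), with overlapping libraries in both. At 9.9 kb upstream (100949119 to 100949763), LPS raised WT from a median of 0.513 to 1.06 CPM, while AhR-KO had medians of 0.743 and 0.607 CPM. The difference of genotype effects there was -1.0 ± 0.327 (edgeR adjusted p = 0.0326), and this call was lost in 8 of 24 fits that left out 1 library. The region was called in 1 WT LPS library and no other.

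Stat2, the partner of IRF9 in the interferon-stimulated gene factor, had 1 DAR of 11 tested peaks between genotypes without LPS (9.09%, against 22.6% of all tested peaks) and 2 with LPS (18.2%, against 26.5%). LPS changed 4 in WT (36.4%, against 47.0%) and 7 in AhR-KO (63.6%, against 48.8%), of which 4 were lower and 3 higher. Its TSS peak (chromosome 10, 128270088 to 128271130) held medians of 31.8 and 39.7 CPM in unstimulated WT and AhR-KO libraries and 29.8 and 33.7 CPM in LPS-treated ones, with overlapping groups in every comparison and no DAR. Its clearest change was in intron 22 (128286943 to 128287528), which closed with LPS. That region held 5.03, 6.00 and 6.34 CPM in WT and 4.91, 7.16 and 7.98 CPM in AhR-KO without LPS, and 1.09, 2.09 and 2.55 CPM in WT and 0.618, 1.08 and 1.58 CPM in AhR-KO with LPS. LPS lowered it by -1.60 ± 0.174 on the log2 scale in WT and -2.63 ± 0.188 in AhR-KO (edgeR adjusted p = 1.06e-09 and 3.15e-14). The 2 responses differed by -1.03 ± 0.260 (edgeR adjusted p = 0.00646), a call kept in all 24 fits that left out 1 library.

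Other Stat2 peaks lay in its flanks. Upstream at -14.0 kb (128256305 to 128256790), AhR-KO was lower than WT without LPS by -0.67 ± 0.203 on the log2 scale (edgeR adjusted p = 0.00963), and the call was lost without WT unstimulated replicate 1 (-0.54). The peak at 128297892 to 128299121 covers the TSS of Il23a, a cytokine subunit gene inside the downstream window. It rose with LPS in WT from a median of 11.9 to 19.2 CPM (0.68 ± 0.0830, edgeR adjusted p = 5.42e-09). In AhR-KO the increase of 0.39 ± 0.0803 was under the fold threshold. A weak region just past the Stat2 gene (128292954 to 128293329) was higher with LPS in both genotypes (1.21 ± 0.321 and 1.33 ± 0.270), and its genotype call with LPS (0.73) was lost without AhR-KO LPS replicate 5 (0.47).

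Stat5a and Stat5b, which transmit the GM-CSF signal on which these cultures depend, lie side by side on chromosome 11. The Stat5a TSS peak (100858689 to 100862199) held 25.1, 26.3 and 30.7 CPM in WT and 35.2, 40 and 49.1 CPM in AhR-KO unstimulated libraries, with no overlap. The log2 fold change of 0.59 ± 0.0777 (edgeR adjusted p = 1.66e-07) lay at the fold threshold, and 5 of 12 fits that left out 1 library put it below. With LPS the genotypes held 28.9, 34 and 40.9 CPM and 33.9, 35.3 and 37.5 CPM, a log2 fold change of 0.02 ± 0.0748. A peak given to Stat5a (100884882 to 100886403) overlaps its last exon, but its centre and larger part lie in the 3′ end of Stat3. This peak rose with LPS, with log2 fold changes of 0.98 ± 0.187 in WT and 1.21 ± 0.168 in AhR-KO (edgeR adjusted p = 2.19e-05 and 7.29e-08).

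The main Stat5b TSS peak (100850087 to 100851419) held medians of 9.32 and 12.3 CPM in unstimulated WT and AhR-KO libraries and 11.1 and 11.3 CPM in LPS-treated ones, with no DAR. Around it, elements moved in different ways. The region 2.3 kb upstream (100852539 to 100853549) held 4.85, 5.81 and 6.21 CPM in WT unstimulated libraries and 9.16, 9.32 and 11.1 CPM in AhR-KO unstimulated libraries, which stood near the 10.1, 10.9 and 11.4 CPM of WT LPS libraries. AhR-KO exceeded WT by 0.75 ± 0.10 on the log2 scale without LPS, and the peak rose with LPS by 0.92 ± 0.0980 in WT (edgeR adjusted p = 1.54e-07 and 2.80e-10). With LPS the genotype difference was 0.18 ± 0.0888 (edgeR adjusted p = 0.0904), and the difference of genotype effects, -0.57 ± 0.134 (edgeR adjusted p = 0.00345), was just under the fold threshold.

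In intron 1 of Stat5b, 6.3 kb past the TSS (100843962 to 100844961), unstimulated libraries held at most 0.511 CPM. With LPS, WT held 0.919, 1.48 and 2.90 CPM and AhR-KO held 2.65, 3.47 and 3.93 CPM, so that AhR-KO was higher by 1.03 ± 0.188 on the log2 scale (edgeR adjusted p = 2.55e-05) with some overlap. A region beyond the 3′ end of Stat5b (100775838 to 100776110) also opened with LPS, but more in WT: 1.06, 1.19 and 1.93 CPM in WT against 0.395, 0.630 and 0.993 CPM in AhR-KO, with no overlap. The genotype difference with LPS was -1.14 ± 0.221 (edgeR adjusted p = 6.29e-05), in a region called in the 6 WT LPS libraries and no other. In intron 12 (100791640 to 100791942) the level was lower both in AhR-KO and with LPS, from a median of 1.80 CPM in WT unstimulated to 0.712 in AhR-KO unstimulated, 0.734 with LPS in WT and 0.322 with both. Close to the TSS, at 2.6 kb (100848042 to 100848294), LPS lowered accessibility by -1.07 ± 0.163 in WT and -1.37 ± 0.152 in AhR-KO (edgeR adjusted p = 5.21e-07 and 5.29e-10).

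**Figure D4:**
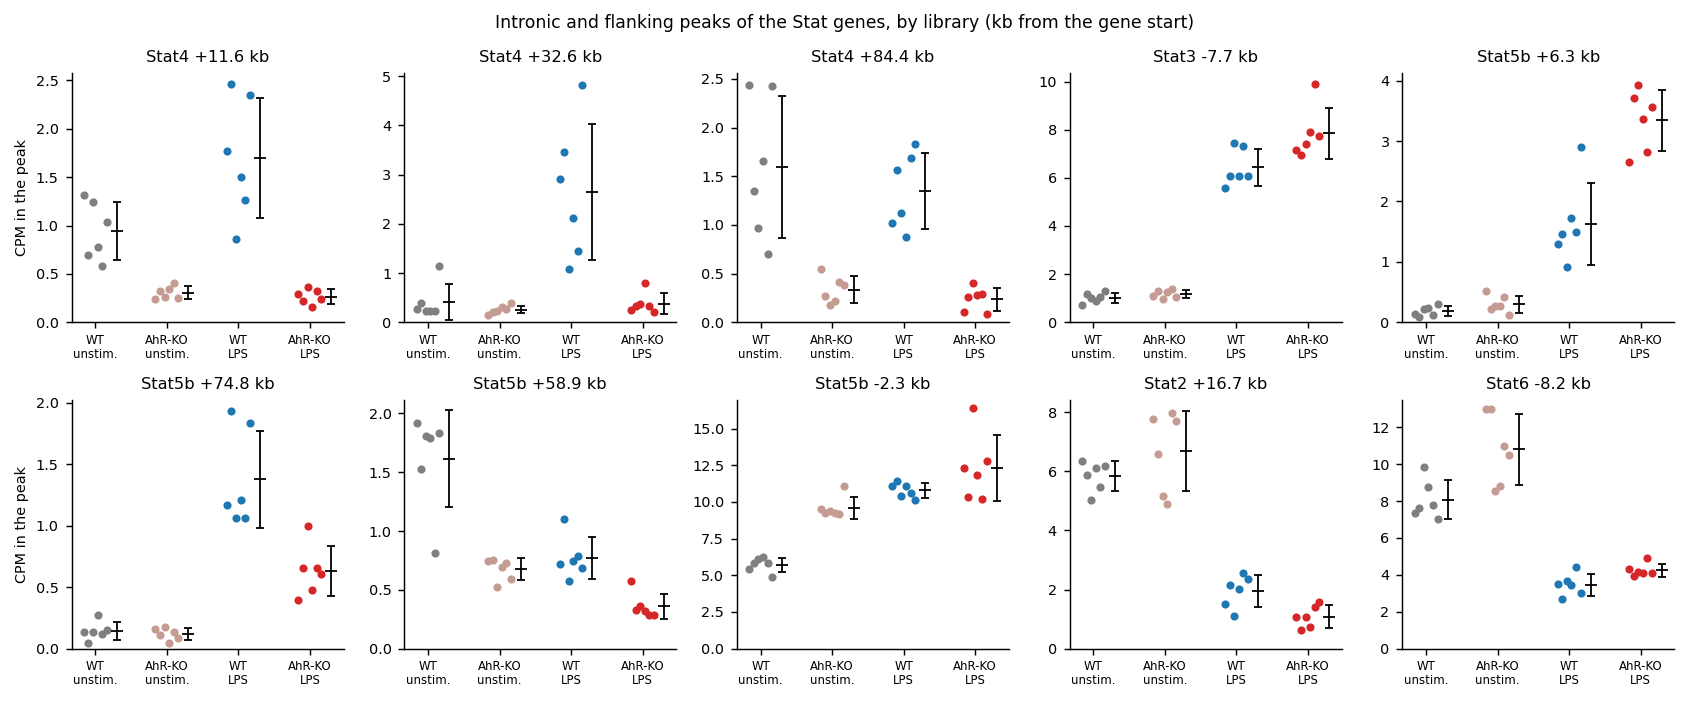
CPM (y axis, from 0) of 10 intronic and flanking peaks in the 6 libraries of each group (points), with mean and SD, titled by gene and kb from its start. The Stat4 panels show AhR-KO LPS libraries at 0.0811 to 0.792 CPM, below every WT LPS library, whereas in the Stat3 and Stat5b panels at -7.7 and 6.3 kb AhR-KO LPS libraries reach 9.89 and 3.93 CPM.

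Stat6, the STAT of alternative macrophage activation, kept its TSS peak (chromosome 10, 127641766 to 127645012) within the fold threshold in every comparison, at medians of 41.5 and 43.3 CPM in unstimulated WT and AhR-KO libraries and 35.3 and 35.8 CPM in LPS-treated ones. LPS lowered it by -0.27 ± 0.0685 on the log2 scale in WT (edgeR adjusted p = 9.19e-04), without overlap of the libraries. Of its 11 tested peaks, LPS lowered 4 in WT (36.4%, against 21.6% of all tested peaks) and 2 in AhR-KO (18.2%, against 21.5%) and raised 1 in each (9.09%, against 25.4% and 27.3%). The most marked decrease was 8.2 kb upstream (127634299 to 127635376), from 7.03, 7.71 and 9.84 CPM to 2.70, 3.46 and 4.40 CPM in WT and from 8.56, 10.8 and 13 CPM to 3.93, 4.12 and 4.93 CPM in AhR-KO. These were log2 fold changes of -1.23 ± 0.119 and -1.35 ± 0.115 (edgeR adjusted p = 2.81e-11 and 7.75e-13).

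Over coding exons 12 and 13 of Stat6 (127654599 to 127655629), AhR-KO was lower than WT in both treatments, by -1.10 ± 0.199 without LPS and -1.14 ± 0.191 with LPS on the log2 scale (edgeR adjusted p = 4.48e-05 and 1.28e-05). WT libraries held 3.49, 4.71 and 6.01 CPM and AhR-KO libraries 1.40, 2.17 and 3.30 CPM without LPS, with no overlap, and with LPS the ranges of 2.33 to 6.49 and 1.54 to 2.40 CPM overlapped. A weak peak over exon 15 (127657058 to 127657223) was higher in AhR-KO by 1.60 ± 0.448 and 1.47 ± 0.267 (edgeR adjusted p = 0.00402 and 2.39e-05), at levels between 0 and 1.14 CPM in all libraries and called in 1 AhR-KO LPS library only. Downstream, inside Nemp1 (127674673 to 127675371), AhR-KO LPS libraries held 23.5 to 26.6 CPM and WT LPS libraries 15.5 to 18.2 CPM. That log2 fold change of 0.59 ± 0.0643 lay at the fold threshold and fell below it in 6 of 12 fits that left out 1 library.

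The other genes of the pathway were read at their TSS peaks, a narrower set than the windows counted for the Stat genes. The shares of all tested peaks given above are not a like measure for TSS peaks. Peaks in these genes or within 5 kb of them are therefore counted too. Of the 4 JAK kinase genes (Jak1, Jak2, Jak3 and Tyk2), 0 had a TSS peak that was a DAR in any comparison. Within 5 kb of these genes, 10 of 71 peaks were lower and 0 higher in AhR-KO without LPS (14.1% and 0%, against 12.6% and 9.95%). With LPS, 6 were lower and 4 higher (8.45% and 5.63%, against 13.1% and 13.4%). In WT, LPS raised 33 and lowered 11 (46.5% and 15.5%, against 25.4% and 21.6%). Among 20 cytokine receptor chains with a TSS peak, 0 were DARs between genotypes in either treatment. LPS raised 1 in WT, Il2rg, the shared gamma chain (0.62 ± 0.0725). In AhR-KO it raised 1, Il10rb (0.80 ± 0.0754), and lowered 2, Il21r (-0.97 ± 0.0812) and the GM-CSF receptor chain Csf2rb (-0.98 ± 0.0727). Those 2 were also the receptor chains whose genotype effect differed with LPS, by -0.83 ± 0.114 and -0.69 ± 0.102 (edgeR adjusted p = 7.07e-06 and 1.63e-05). Within 5 kb of the 21 listed receptor genes, 16 of 163 peaks were lower and 11 higher in AhR-KO without LPS (9.82% and 6.75%). With LPS, 17 were lower and 13 higher (10.4% and 7.98%).

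Of 14 partners and negative regulators, 0 had a TSS peak that was a DAR between genotypes. At the TSS, 1 rose with LPS in WT (Socs1, an inhibitor of JAK kinases, 0.61 ± 0.0670) and 1 in AhR-KO (Usp18, an inhibitor of interferon signalling, 0.60 ± 0.0728). Within 5 kb of the 14 genes, 7 of 117 peaks were lower and 13 higher in AhR-KO without LPS. With LPS, 11 were lower and 14 higher. The genotype effect differed with LPS at 18 of these peaks, 12 lower and 6 higher (10.3% and 5.13%, against 4.58% and 5.83%). Of 19 STAT target genes, 3 had a higher and 1 a lower TSS peak in AhR-KO without LPS, and 0 were DARs with LPS. The higher 3 were Retnla (0.90 ± 0.208), Ccl17 (0.77 ± 0.185) and Ccl22 (0.79 ± 0.150), while Chil3 (-0.05 ± 0.107) and Arg1 (0.16 ± 0.0822), which like them respond to IL-4, did not pass the test. The lower 1 was Oasl2, an interferon-induced gene (-0.74 ± 0.130). LPS raised 4 of the 19 in WT and 6 in AhR-KO and lowered 3 in each. The interferon-induced genes Ifit1 and Oasl2 both rose with LPS. In WT their log2 fold changes were 0.96 ± 0.0741 and 0.69 ± 0.118, in AhR-KO they were 1.57 ± 0.0750 and 1.65 ± 0.122, and their genotype effects differed with LPS by 0.61 ± 0.105 and 0.96 ± 0.170 (edgeR adjusted p = 1.27e-04 and 2.30e-04). Among the other interferon-induced genes of the list this difference was 0.12 ± 0.105 for Mx1, 0.37 ± 0.137 for Isg15 and 0.36 ± 0.0949 for Irf7, none of them a DAR. It was negative for Ccl17 (-0.96 ± 0.257, edgeR adjusted p = 0.0133) and Ccl22 (-0.87 ± 0.193, edgeR adjusted p = 0.00247), so 2 of the 19 target TSS peaks differed in each direction. Of 124 peaks within 5 kb of these targets, 7 had a lower and 24 a higher difference (5.65% and 19.4%, against 4.58% and 5.83%). Between genotypes, 14 were lower and 8 higher in AhR-KO without LPS (11.3% and 6.45%, against 12.6% and 9.95%). With LPS, 9 were lower and 20 higher (7.26% and 16.1%, against 13.1% and 13.4%).

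The genes on other chromosomes whose TSS peak was most like that of a Stat gene were found by Pearson's r of log2(CPM + 1) over the 24 libraries, as a description. For Stat4 they were Gnb4 (0.962), Rrad (0.943) and Fscn1 (0.941). For Stat3 they were Prmt1 (0.963), Rras (0.962) and Slc37a4 (0.958), and for Stat2 they were Ptma (0.937), Smarcd2 (0.937) and Scaf1 (0.936). Stat5a was nearest to Ubash3b (0.924), Stat6 to Casp8 (0.901) and Stat5b to Nfil3 (0.845). The 24 points of each r share 4 groups and the same libraries and depths.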

How the data were processed

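The deposited table held raw fragment counts per consensus peak. The authors ran nf-core's atacseq workflow against mm10: after alignment and filtering, MACS2 gave broad peaks for each library, which were merged across libraries, and read pairs were counted with featureCounts 2.0.1, which gave a pair to every peak that it overlapped by a fraction of 0.2. The authors also deposited 1 broad peak list per library, with the −log10 q-value of each peak, and a member peak counted as called in a library where any listed peak overlapped it. No libraries were pooled.

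Positions are those of the table on mm10, whose starts equal the 0-based starts of the peak lists, so the first base of a peak is 1 higher. Sequence windows count from 1. Genes and exon numbers came from GENCODE, in the protein-coding transcript that starts under the TSS peak and has the most exons, and distances are from that start to the peak's centre. Promoters came from RefSeq on GRCm38, where all 6 genes matched with 9 entries.

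The test was that of edgeR 4.0.16 (R 4.3.3) on the counts (filterByExpr by group, which kept 174193 peaks, TMM factors of 0.976 to 1.04, trended dispersion and a robust quasi-likelihood fit to all 24 libraries with the group as the only term). P-values were two-sided and adjusted by the Benjamini-Hochberg method over all tested peaks, for 5 comparisons. The procedure was tested on simulated data. The standard error is the log2 fold change divided by the square root of the F value. The interaction is the genotype effect with LPS minus that without. Named were each gene's main TSS peak and, per gene and comparison, the DAR with the smallest p in each direction. Alternatives were RLE size factors, DESeq2 1.42.0, no filter, only the compared groups, a replicate block, each library left out, fold thresholds of 2 and none, a window of 5 kb and, chosen after seeing the data, leaving out peaks inside other genes or called in 1 group only.

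The members, gene lists and tests were chosen with earlier results of these data known. The 3 peaks in a gene next to Stat4 were counted but are not reported here one by one.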

Additional observations from a re-analysis of the deposited data

Results flagged for a closer look

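In 3 named peaks the genotype effect with LPS differed from that without LPS by edgeR's test of the difference. These differences were -2.08 (log2) at the Stat4 intron 3 peak at 52040310, -1.03 at the Stat2 intron 22 peak at 128286943 and -1.0 at the Stat3 upstream peak at 100949119.

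In 10 of 116 groups of 6 libraries, over 29 named peaks, 1 library stood far from the other 5 by Dixon's test, of which chance flags about 1 in 20. At Stat4, WT unstimulated replicate 6 held 0.842 CPM at 51970019, against 0.233 to 0.460 CPM in the others, and 1.14 CPM at 52040310, against 0.221 to 0.392 CPM. AhR-KO LPS replicate 4 held 0.792 CPM at 52040310, against 0.203 to 0.361 CPM, and AhR-KO unstimulated replicate 2 held 1.79 CPM at the TSS peak, against 1.30 to 1.46 CPM. At Stat6, WT unstimulated replicate 1 had 0 CPM at 127657058, against 0.0872 to 0.138 CPM.

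AhR-KO LPS replicate 5 held 2.12 CPM at 128292954 beside Stat2, against 0.831 to 1.05 CPM, and 9.89 CPM at 100946649 upstream of Stat3, against 6.95 to 7.92 CPM. At Stat5b, WT unstimulated replicate 5, whose total was 8.54 M, held 0.814 CPM at 100791640, against 1.53 to 1.92 CPM. AhR-KO LPS replicate 1 held 0.574 CPM at the same peak, against 0.284 to 0.361 CPM. AhR-KO unstimulated replicate 6 held 11.1 CPM at 100852539, against 9.16 to 9.48 CPM.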

How the results depend on the processing

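Of 71 calls on 31 named peaks, 62 were kept with RLE size factors, DESeq2, no filter, only the compared groups, the replicate block and each library left out, 9 were lost under at least 1 of these, and 0 changed direction. Other fold thresholds were applied to the counts only. Counts of Stat DARs moved mainly with the fold threshold. A threshold of 2-fold gave 6 lower and 2 higher peaks for AhR-KO against WT without LPS, 3 higher with LPS, 4 lower for LPS in WT, 4 lower and 19 higher for LPS in AhR-KO, and 0 higher for the difference of genotype effects. With no fold threshold there were 31 higher without LPS, 21 higher with LPS, 17 lower for LPS in WT, 24 lower for LPS in AhR-KO, and 10 lower differences of genotype effects. A 5 kb window left 7 peaks lower with LPS in AhR-KO and 0 higher differences, with fewer peaks counted. Lower differences numbered 6 with RLE size factors, 8 with DESeq2 and 5 with no filter on low counts. Of 2 alternatives chosen after seeing the data, leaving out peaks inside other genes gave 0 higher differences, and leaving out peaks called in 1 group only gave 13 lower and 7 higher peaks for genotype with LPS and 1 lower difference. Leaving out 1 library at a time gave 1 to 8 lower and 1 to 3 higher differences, 11 to 13 lower and 7 to 11 higher peaks for genotype without LPS, and 20 to 23 and 8 to 12 with LPS. For LPS the ranges were 7 to 8 lower and 32 to 36 higher in WT, and 9 to 12 and 28 to 30 in AhR-KO.

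Libraries with the same number shared no stated origin. Between unstimulated and LPS cultures of the same genotype, their deviations correlated by 0.0351 to 0.275 in WT and 0.00304 to 0.161 in AhR-KO. Unstimulated WT replicates 1, 2, 3 and 6 and AhR-KO replicates 1, 3 and 5 were nearest to the LPS library of their own number, out of 6 candidates each. Between genotypes the correlations were -0.127 to 0.208. Pairing by number within a genotype was thus possible, but the main fit did not use it. With the replicate block, 2 peaks had a higher difference and the Stat5a TSS call without LPS was lost (0.58), while no other named call changed. That Stat5a call was also lost in 5 of 12 fits that left out 1 library, at 0.53 to 0.58. The Stat5a difference of genotype effects (-0.56) passed the threshold with RLE size factors (-0.61) and DESeq2 (-0.62). Genotype calls lost without 1 library were Stat5b at 100848042 (0.52, without WT unstimulated replicate 1), Stat5a at 100884882 (0.55 to 0.57 in 3 fits) and Stat3 at 100887858 (0.56 to 0.58 in 3 fits). Their causes were not tested. Peaks under 1 CPM rested on few read pairs in the shallowest libraries, which limits what could be detected there.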
